A study of Mus musculus with 3 samples.

Results

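The 78 mouse genes described here carry an Mrpl or Mrps symbol, the symbols given to proteins of the mitochondrial ribosome, and all but Mrps36 encode such a protein. They were chosen by symbol and by having at least 1 annotated protein-coding transcript, from 55450 genes in the transcript tables, of which 21901 had such a transcript. Of the 78, 49 carry an Mrpl symbol (large subunit) and 29 an Mrps symbol (small subunit). No measured value entered this rule, although the genes were chosen with earlier results of these data known. RNA was taken from the chromatin fraction of bone-marrow-derived macrophages of C57BL/6J mice, which were stimulated for 60 minutes with 100 ng/ml Lipid A, the membrane anchor of lipopolysaccharide and the ligand of Toll-like receptor 4. The single group held 3 libraries labelled as biological replicates, made from 1 µg of RNA (replicate 1), 250 ng (replicate 2) and 500 ng (replicate 3), with the same donor entry for all. Separate animals are not stated, so errors and p-values measure only how these libraries differ, and that variation may be technical. Unstimulated cells were not analysed here, and the values are therefore levels and not responses.

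The mitochondrial ribosome translates the few proteins that are still encoded by mitochondrial DNA, all of them core parts of the respiratory chain and the ATP synthase. Its RNAs come from mitochondrial DNA, but every one of its proteins is encoded in the nucleus, made in the cytosol and imported. Some of these proteins descend from bacterial ribosomal proteins and others were added in the mitochondrial lineage. Because chromatin-bound RNA is rich in transcripts that are still being made and spliced, the levels below describe RNA held at the genes and not the cell's store of mature messenger RNA.

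The libraries held 13318395, 15352661 and 15812581 expected counts assigned to genes in replicates 1, 2 and 3. The 78 genes took 4339, 6369 and 5226 of them, or 0.0326%, 0.0415% and 0.0331%. Counts per gene were small, with a median over the 78 genes of 29.1 (mean of 3 libraries) and a range of 2.33 to 717, and 41 genes averaged under 30 counts. The labelled cell type fits its markers, since 12 of 12 macrophage markers reached 1 TPM (a share of all transcripts, normalized for length and library size) in every library. Of the markers of other cells, 0 of 6 T cell, 0 of 5 B cell, 0 of 6 neutrophil, 0 of 5 fibroblast, 0 of 5 erythroid and 2 of 5 endothelial genes did so. The 2 were Vwf, at 38.91, 47.33 and 50.55 TPM, and Kdr, at 1.83, 1.80 and 2.22 TPM. In a second quantification of the same libraries these numbers were 3 T cell, 1 B cell, 0 neutrophil, 1 fibroblast, 1 erythroid and 2 endothelial genes.

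Most mitoribosomal protein genes were present at low levels in chromatin RNA, and a small set stood far above the others. Levels and ranks are those of the deposited gene table unless a second quantification, described at the end, is named. TPM of at least 1 in all 3 libraries, called detected below, was reached by 45 of 78 genes (57.7%), against 35.9% of all genes with a protein-coding transcript. Both subunits had similar shares, 28 of 49 Mrpl genes and 17 of 29 Mrps genes. A further 19 genes passed 1 TPM in 1 or 2 libraries and 14 in none, but only Mrpl55, at 0 counts in replicate 1, lacked any count in a library. At the upper end, 9 genes reached 5 TPM in every library and 4 reached 10 TPM. These 4, Mrpl52, Mrpl39, Mrpl24 and Mrps9, together held 31.3% of the summed mean TPM of the 78 genes.

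Mrpl52, a mitochondria-specific protein of the large subunit (chr14:54426909-54429756, plus strand, mm10), had the highest mean in the gene table, with 16.7, 35.7 and 18.3 TPM in replicates 1, 2 and 3. Replicate 2 lay far above the other libraries, so the mean of 23.5 ± 10.6 TPM (SD, n = 3) was the least even of the top 4. In the second quantification Mrpl52 averaged 49.4 TPM and ranked behind Mrpl20 (97.6 TPM) and Mrpl48 (53.2 TPM). Mrpl39, a mitochondria-specific large-subunit protein (chromosome 16, minus strand), measured 17.96, 26.2 and 19.8 TPM. Mrpl24, the counterpart of bacterial L24 (chromosome 3, plus strand), measured 17.4, 25.7 and 19.7 TPM. The order of these 3 large-subunit genes did not exceed their spread, since each was highest in replicate 2 and their ranges overlapped. Mrps9, the counterpart of bacterial S9 (chromosome 1, plus strand), led the small subunit with 10.5, 17.7 and 13.3 TPM.

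**Figure D1:**
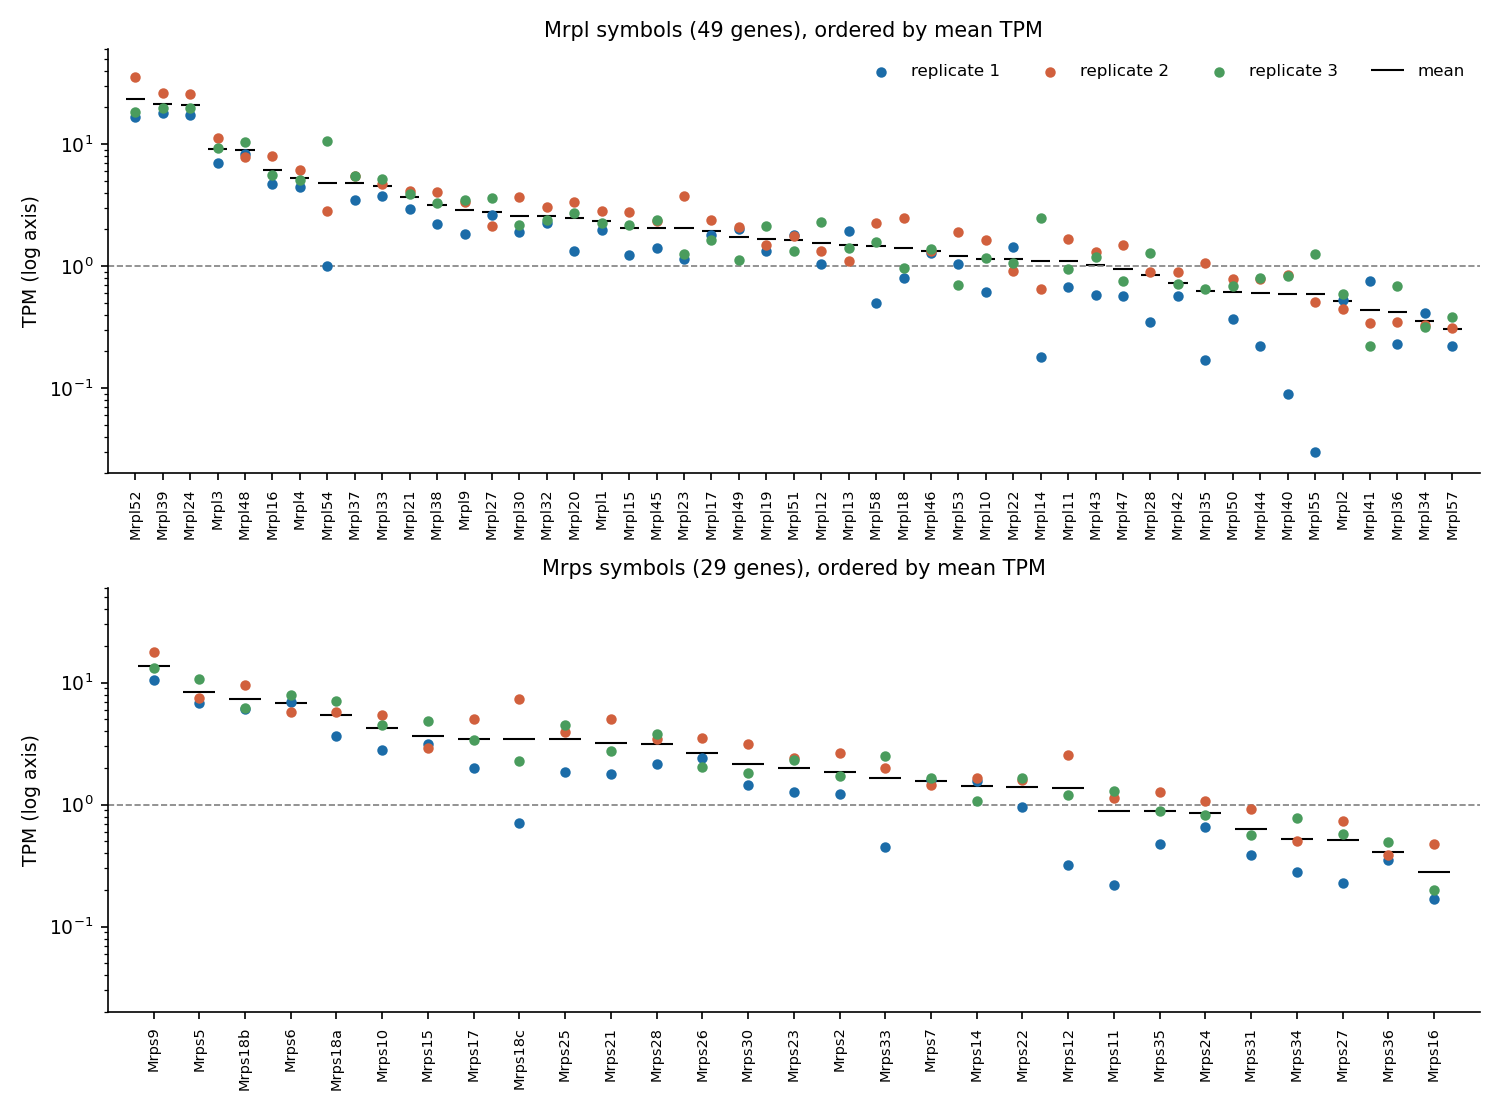
TPM of each of the 49 Mrpl genes (upper panel) and 29 Mrps genes (lower panel) in each library, as points on a log axis, with a bar at the mean and a dashed line at 1 TPM. Mrpl52, Mrpl39, Mrpl24 and Mrps9 lie above 10 TPM in every library, and replicate 1 is most often the lowest point; the value of 0 for Mrpl55 in replicate 1 is drawn at the foot of its panel.

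Among bacterial-type large-subunit genes, 18 of 30 were detected. After Mrpl24 came Mrpl3, which measured 6.98, 11.3 and 9.35 TPM, Mrpl16 with a mean of 6.12 ± 1.73 TPM and Mrpl4 with 5.24 ± 0.888 TPM. At the foot of this group, Mrpl34 averaged 0.353 ± 0.0493 TPM on 2 or 3 counts a library, Mrpl36 averaged 0.423 ± 0.239 TPM and Mrpl2 averaged 0.523 ± 0.0702 TPM. Mrpl12, the counterpart of the stalk protein L7/L12, measured 1.04, 1.34 and 2.29 TPM. Mrpl18, the counterpart of the 5S rRNA-binding protein L18, measured 0.80, 2.49 and 0.96 TPM and so passed 1 TPM in replicate 2 only. Mrpl55 measured 0, 0.51 and 1.26 TPM, and its 0 counts in replicate 1 allow up to 0.225 CPM (3 counts, counting error only).

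Large-subunit proteins classed here as mitochondria-specific had 12 of 21 genes detected. The class includes Mrps30 and Mrps18a, which sit in the large subunit despite their symbols, although Mrps18a is related to bacterial S18 and was classed by its place and not its descent. After Mrpl52 and Mrpl39 came Mrpl48, with 8.35, 7.91 and 10.5 TPM. Mrps18a (5.46 ± 1.72 TPM), Mrpl54 (4.83 ± 5.14 TPM) and Mrpl37 (4.81 ± 1.15 TPM) followed. Mrpl54 was the most uneven of the upper genes, at 1.00, 2.83 and 10.7 TPM on 7, 16 and 65 counts, with replicate 3 far above the rest. Mrpl58, a peptidyl-tRNA hydrolase built into the large subunit, measured 0.50, 2.27 and 1.59 TPM. Mrpl57 was the lowest large-subunit gene in the gene table, at 0.22, 0.31 and 0.38 TPM, but averaged 38.1 TPM in the second quantification.

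Small-subunit genes classed here as bacterial-type had the largest detected share of the 4 role groups, 11 of 16. They also had the highest median, 1.84 ± 0.43 on the log2(TPM + 1) scale. Mrps5, a protein of the messenger RNA entry region, measured 6.80, 7.50 and 10.7 TPM. Mrps6 measured 6.98, 5.70 and 7.90 TPM and Mrps10 averaged 4.25 ± 1.31 TPM. Of the Mrps6 mean of 6.86 TPM, only 0.33 TPM lay in its protein-coding transcript. In the second quantification that transcript held 0.0772 of 13.1 TPM. The group also held the lowest gene of all 78, Mrps16, at 0.17, 0.48 and 0.20 TPM. Small-subunit genes classed here as mitochondria-specific had 4 of 10 detected and a median of 1.25 ± 0.42. Mrps25 was highest of them at 1.84, 3.91 and 4.53 TPM and Mrps27 lowest at a mean of 0.517 ± 0.261 TPM. Mrps28, at 2.16, 3.43 and 3.78 TPM, was counted in this class. Placing it with the bacterial-type genes would change the detected shares of both classes. The 4 role groups overlapped in level, and no test was made between them. Mrps36, whose product is now known as a subunit of the 2-oxoglutarate dehydrogenase complex, measured 0.35, 0.39 and 0.49 TPM.

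The 3 Mrps18 paralogs, which descend from 1 bacterial protein, overlapped in level and differed in evenness. Mrps18b measured 6.03, 9.60 and 6.23 TPM and Mrps18a measured 3.63, 5.71 and 7.05 TPM, and these ranges overlapped. Mrps18c measured 0.71, 7.34 and 2.26 TPM on 8, 24 and 12 counts, which spans the range of Mrps18a. In the second quantification the means were 10.9 TPM for Mrps18a, 13.5 TPM for Mrps18b and 10.1 TPM for Mrps18c.

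Starts shared with a neighbouring gene were common among the 78. For 18 of 78 (23.1%), the start of another protein-coding gene lay within 1000 bases upstream on the opposite strand, in GENCODE M21. This arrangement held for 6.78% of all nuclear coding genes and 10.4% of detected ones. Mrps18b starts 45 bases from Ppp1r10, a nuclear phosphatase subunit that measured 45.7 TPM, and Mrpl49 starts 59 bases from Fau, a cytosolic ribosomal protein gene at 13.7 TPM. Mrps12 faces Sars2, the mitochondrial seryl-tRNA synthetase, at 172 bases, and the 2 measured 1.36 and 2.15 TPM. In addition, 36 of 78 genes (46.2%) overlapped a gene on the other strand, against 46.7% of detected coding genes, and Mrpl46 and Mrps11 overlap each other. The strand setting of the counting is not stated, so reads of such overlapping genes cannot be told apart. On the same strand, 13 of 78 genes (16.7%) overlapped another gene, against 26.0% of detected coding genes. No strand setting separates these. Among them are Mrps28 (mean 3.12 TPM) with Gm15466 (61.9 TPM) and Mrps6 (mean 6.86 TPM) with Slc5a3 (17 TPM).

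Promoter sequence was available for 69 of the 78 genes, as 75 RefSeq windows (GRCm38) of 250 bases before to 50 after a start. Both strands were searched for TGCGCA, the core of the site bound by nuclear respiratory factor 1 (NRF1), and for CCGGAAG, a core of sites bound by ETS factors such as GABPA. TGCGCA is its own reverse complement and the motifs do not overlap in letters. Either motif was present in 53.3% of the 75 windows, against 30.3% of 8155 windows of detected coding genes and 19.5% of 21262 windows of all coding genes. The NRF1-type motif was in 29.3%, 13.9% and 9.74% of these windows, and the ETS-type motif in 34.7%, 19.7% and 11.6%. The windows of cytosolic ribosomal protein genes held the ETS-type motif at a like share, 36%, and the NRF1-type motif at 18.7%. Either motif was present in 51.2% of windows of detected members and in 55.9% of windows of the other members. GC content of the windows had a median of 58.7%, between 56.3% for all and 61.3% for detected coding genes. These matches are a description of letters and not of binding.

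To show promoters across the range of levels, the 250 bases before the start of 3 genes are printed 5′ to 3′ on the gene's strand, in lower case with the motif matches in capitals. They are Mrpl52, the highest gene of the gene table (chr14:54426659-54426908, plus strand), Mrps16, the lowest, by the 1 of its 2 windows whose upstream bases overlap no annotated exon (chr14:20393635-20393884, minus strand), and Mrpl58, which holds both motifs (chr11:115403502-115403751, plus strand).
Mrpl52: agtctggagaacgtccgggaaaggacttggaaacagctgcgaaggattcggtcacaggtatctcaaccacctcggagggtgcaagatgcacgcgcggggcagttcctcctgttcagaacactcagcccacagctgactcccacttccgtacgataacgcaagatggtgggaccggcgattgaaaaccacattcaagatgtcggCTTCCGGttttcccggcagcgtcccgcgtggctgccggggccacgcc
Mrps16: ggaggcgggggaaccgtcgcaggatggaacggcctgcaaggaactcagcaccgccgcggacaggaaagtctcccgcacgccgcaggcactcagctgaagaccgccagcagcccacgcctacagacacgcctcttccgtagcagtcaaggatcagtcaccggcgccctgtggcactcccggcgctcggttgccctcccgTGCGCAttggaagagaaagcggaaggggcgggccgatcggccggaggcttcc
Mrpl58: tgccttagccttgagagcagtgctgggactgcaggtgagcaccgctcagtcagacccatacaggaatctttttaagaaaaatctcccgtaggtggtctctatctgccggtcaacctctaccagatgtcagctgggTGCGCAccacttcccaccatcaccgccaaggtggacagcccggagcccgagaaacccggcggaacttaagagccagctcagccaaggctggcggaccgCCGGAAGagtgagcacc
The Mrpl52 bases hold 1 ETS-type match on the reverse strand (CTTCCGG). The printed Mrps16 bases hold 1 NRF1-type match, and its other window, not printed, holds both motifs.

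As a class, mitoribosomal protein genes lay above the median over all coding genes, far below cytosolic ribosomal protein genes and near respiratory chain genes. The median of log2(TPM + 1) over the 78 genes was 1.21, 1.73 and 1.47 in replicates 1, 2 and 3, which gives 1.47 ± 0.26 (SD, n = 3). Over 21888 nuclear coding genes it was 0.30 ± 0.07. Of those genes, 7245 had no count in any library, so that median includes many genes without signal. The level over detected coding genes alone was not taken. The 83 cytosolic ribosomal protein genes had a median of 3.79 ± 0.23, and the difference taken within each library was -2.33 ± 0.03, the same direction in 3 of 3 libraries. The 86 nuclear respiratory chain genes had a median of 1.64 ± 0.24, and the difference within libraries was -0.17 ± 0.02. That small difference turned to 0.12 ± 0.07 when CPM values, with no division by length, were used. Mrpl genes lay 0.19 ± 0.07 below Mrps genes on the same scale (-0.19), but 0.11 ± 0.13 above them with the second deposited quantification, so the order of the subunits depended on the quantification.

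**Figure D2:**
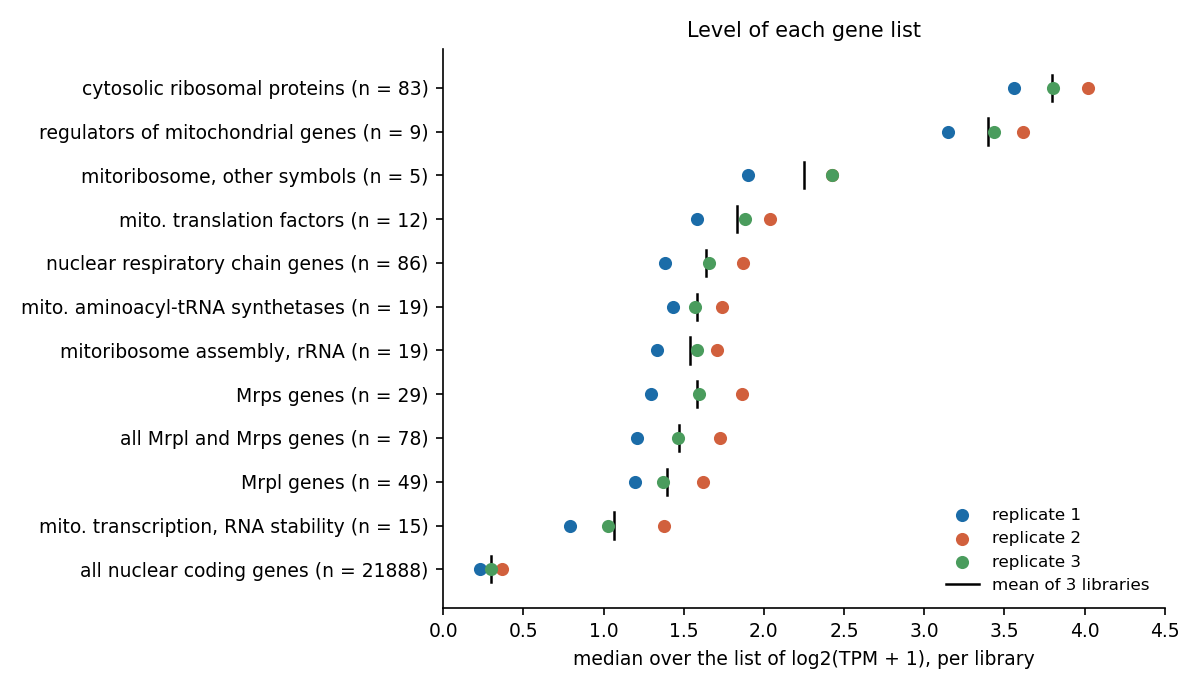
Median of log2(TPM + 1) over each gene list in each library (points, coloured by replicate) with the mean of the 3 libraries as a vertical bar. The 78 mitoribosomal protein genes (1.47) lie near the respiratory chain genes (1.64) and far from cytosolic ribosomal protein genes (3.79), and replicate 1 is lowest in every list shown.

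In TPM, replicate 1 was the lowest library for 62 of the 78 genes (79.5%) and replicate 2 the highest for 44. The same order was seen in detected nuclear coding genes, of which 75.8% were lowest in replicate 1. Deviations from each gene's own mean had medians of -0.28, 0.20 and 0.05 (log2 scale) in the 78 genes and -0.21, 0.16 and 0.05 in detected coding genes. The amount of starting RNA also differed between the libraries and cannot be told apart from the replicate.

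The spread between libraries in excess of counting noise was close to that of all genes. On counts, 54 of the 78 genes passed edgeR's filter on low counts, and their median biological coefficient of variation was 0.182, against 0.175 over all 12451 genes fitted. The coefficient that edgeR's trend gives for genes of like abundance had a median of 0.211 over the 54. Mrps35 stood highest at 0.383, on 12, 51 and 15 counts in replicates 1, 2 and 3, with replicate 2 apart from the rest. In TPM, among the 37 genes averaging at least 30 counts, the largest SD of log2(TPM + 1) belonged to Mrpl23 (0.64), Mrpl52 (0.58), Mrps25 (0.51), Mrps17 (0.50), Mrps18a (0.41) and Mrpl15 (0.39). Mrpl23 measured 1.14, 3.73 and 1.26 TPM. The smallest SDs in TPM were those of Mrps7, at 1.58, 1.44 and 1.65 TPM (0.06), Mrpl51 (0.15) and Mrpl32 (0.17). On counts Mrps7 measured 23, 42 and 39, and its coefficient of 0.198 and that of Mrpl51 (0.220) lay above the median of the members. The trend at their abundance was 0.220 for Mrps7 and 0.219 for Mrpl51. Without replicate 2 the median coefficient fell from 0.182 to 0.143, and that of all genes fitted from 0.175 to 0.128.

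Partner genes of mitochondrial translation covered a wider range of levels than the 78 genes. Of 79 genes in 6 lists, 45 were detected. Among mitoribosomal proteins under other symbols, 4 of 5 were detected, led by Dap3 (mS29), a GTP-binding protein of the small subunit, at 21.4, 28.2 and 27.0 TPM, and Ptcd3 (mS39), a pentatricopeptide-repeat protein, at 7.47, 13.5 and 11.6 TPM. Translation factors had 7 of 12 detected, with the ribosome-recycling factor Gfm2 highest at 8.58 ± 0.987 TPM and the release factor Mtrf1 lowest at 0.170 ± 0.130 TPM. Assembly and rRNA factors had 11 of 19, with Malsu1 at 14.6 ± 6.28 TPM and Mterf3 at 12.5 ± 1.82 TPM highest and the rRNA dimethylase Tfb1m lowest at 0.220 ± 0.108 TPM. Aminoacyl-tRNA synthetases had 12 of 19, from Fars2 at 26.7 ± 5.54 TPM to Pars2 at 0.0367 ± 0.0208 TPM.

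Genes for mitochondrial transcription and RNA stability had the smallest detected share, 4 of 15. Polg, the mitochondrial DNA polymerase, averaged 35.8 ± 7.52 TPM, whereas Tfam, which packages mitochondrial DNA, averaged 0.447 ± 0.285 TPM. Regulators of nuclear mitochondrial genes had 7 of 9 detected and a median of 3.40 ± 0.24. The nuclear receptor gene Esrra was highest, at 17.0, 18.2 and 19.1 TPM. Ppargc1a was listed at 0 in every library, but averaged 1.53 TPM in the second quantification. Gabpa averaged 13.4 ± 1.73 TPM and Nrf1 averaged 9.17 ± 2.32 TPM.

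Transcripts annotated as retaining an intron made up a share of the signal that depended on the quantification. GENCODE splits a gene's transcripts into classes, and of the summed transcript TPM of the 78 genes 46.4% ± 3.80 fell to protein-coding, 40.4% ± 4.85 to retained-intron and 11.0% ± 1.37 to processed transcripts. Over all nuclear coding genes the protein-coding and retained-intron classes took 48.1% and 39.4%. In the second quantification the 2 classes took 57.3% and 22.7% of the 78 genes' TPM, and 45.5% and 33.8% over all nuclear coding genes. A retained-intron transcript was annotated for 48 of the 78 genes, and 36 of these had a mean summed TPM of at least 1 in the 2 classes together and were tested. The ratio of the summed TPM of retained-intron to protein-coding transcripts was tested gene by gene with limma over all 5601 such genes.

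Retained-intron transcripts were higher in 17 of 36 members (47.2%), against 35.5% of all genes tested. Protein-coding transcripts were higher in 8 (22.2%), against 31.8%, while 11 met the threshold for neither class. Log2 ratios had a median of 0.47 in the 36 members and 0.08 in all genes tested. Mrpl genes gave 11 and 6 calls of 24 and Mrps genes 6 and 2 of 12. Leaving out replicate 2 reduced the 17 to 12, and leaving out replicate 1 or replicate 3 reduced the 8 to 3 or 5. In the second quantification the balance was the opposite. There 15 of 42 members (35.7%) were higher for retained-intron transcripts, against 46.8% of all genes tested, and 17 (40.5%) for protein-coding transcripts, against 32.4%. The larger share of retained-intron calls among members than among all genes was thus seen in the first quantification and not in the second. Even in the first it narrowed in some settings. It was 47.2% against 42.9% as mean TPM per annotated transcript, and 33.3% against 30.9% without replicate 2.

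**Figure D3:**
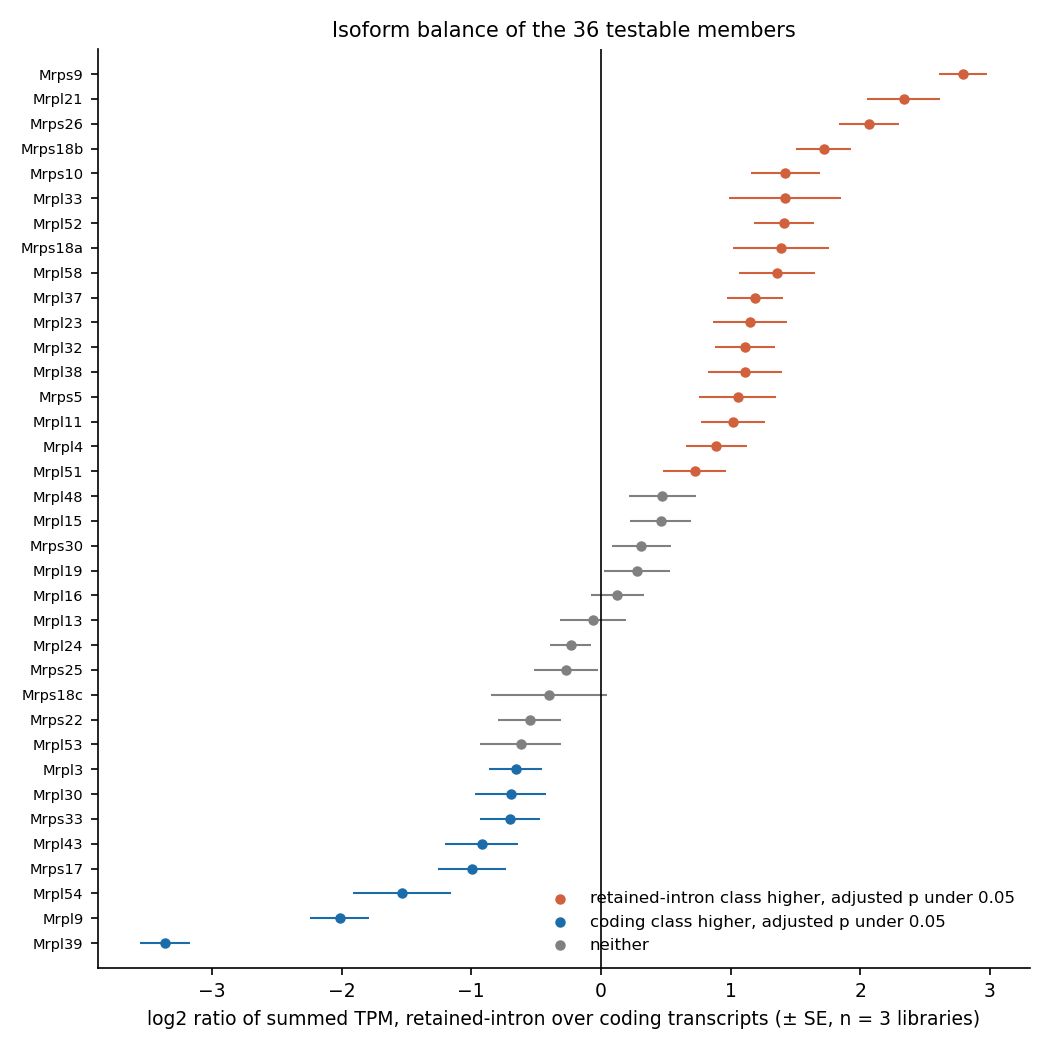
Log2 ratio of summed TPM of retained-intron over protein-coding transcripts for the 36 members tested, with its standard error over 3 libraries, coloured by the limma call at an adjusted p of 0.05. Values run from 2.79 for Mrps9 to -3.36 for Mrpl39, with 17 members called above 0 and 8 below.

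The 4 most abundant genes lay at different points of this range. In Mrps9, retained-intron transcripts measured 6.84, 11.0 and 8.82 TPM and coding ones 0.46, 1.49 and 0.74 TPM, so the classes did not overlap (log2 ratio 2.79 ± 0.19 SE, limma adjusted p = 5.46e-06). In Mrpl39 the order was the opposite, with 0.73, 2.39 and 1.60 TPM against 17.2, 23.8 and 18.2 TPM (-3.36 ± 0.19, limma adjusted p = 2.47e-06). Mrpl52 had 11.9, 29.4 and 12.0 TPM in retained-intron and 4.78, 6.33 and 6.28 TPM in coding transcripts (1.41 ± 0.23, limma adjusted p = 8.07e-04), a ratio that turned to -0.58 in the second quantification. Mrpl24 passed in neither direction, with 7.49, 12.5 and 8.97 TPM against 9.94, 13.2 and 10.7 TPM (-0.23 ± 0.16, limma adjusted p = 0.22). In the second quantification it was called for coding transcripts (-0.65, limma adjusted p = 0.00188).

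Behind Mrps9, the highest ratios belonged to Mrpl21 (2.34 ± 0.28), Mrps26 (2.07 ± 0.23), Mrps18b (1.72 ± 0.21) and Mrps10 (1.42 ± 0.27). Next came Mrpl33 (1.42 ± 0.43), Mrpl52 (1.41 ± 0.23) and Mrps18a (1.39 ± 0.37). Mrps26, a mitochondria-specific small-subunit protein, measured 2.35, 3.16 and 1.85 TPM in its 1 retained-intron transcript and 0.07, 0.36 and 0.18 TPM in its coding one. Mrpl21, the counterpart of bacterial L21, measured 2.69, 3.51 and 3.66 TPM against 0.26, 0.59 and 0 TPM. Besides Mrpl39, the lowest ratios were those of Mrpl9 (-2.01 ± 0.23), Mrpl54 (-1.53 ± 0.38), Mrps17 (-0.99 ± 0.26), Mrpl43 (-0.92 ± 0.28), Mrps33 (-0.70 ± 0.23), Mrpl30 (-0.69 ± 0.27) and Mrpl3 (-0.66 ± 0.21). Mrps26 lost its call in the second quantification (0.41, limma adjusted p = 0.158), as did Mrpl33 (0.69, limma adjusted p = 0.0567), which also lost it without replicate 2 (0.66, limma adjusted p = 0.0755). Among the lowest, Mrps17 and Mrpl3 turned above 0 in the second quantification, at 2.00 and 0.07. Of the 17 members called for retained-intron transcripts, 11 were called the same way in both quantifications and 4 (Mrpl4, Mrpl11, Mrpl51 and Mrpl52) the opposite way. Of the 8 called for coding transcripts, 6 kept their call, Mrpl39, Mrpl9, Mrpl54, Mrpl43, Mrps33 and Mrpl30, and Mrps17 took the opposite one.

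Partner genes gave 13 calls for retained-intron and 14 for coding transcripts among 44 tested, with a median log2 ratio of 0.08, beside 35.5% and 31.8% of all genes tested. The lists are small and their counts were not tested against those shares. All partner calls here are from the first quantification, and those of the second are not given. Assembly factors gave 6 and 2 of 10, and aminoacyl-tRNA synthetases 2 and 8 of 14. The most extreme was Ptcd3, with 7.31, 12.9 and 11.2 TPM in retained-intron and 0.08, 0.48 and 0.46 TPM in coding transcripts (3.71 ± 0.17, limma adjusted p = 1.14e-06). At the other end was Tufm, the elongation factor that brings aminoacyl-tRNA to the mitoribosome, whose retained-intron class was listed at 0 and coding class at 2.15, 4.12 and 4.0 TPM (-2.93 ± 0.25, limma adjusted p = 1.92e-05).

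The retained-intron label covers different structures. Of 88 such transcripts of the 78 genes, 28 span at least 1 whole intron of a coding transcript, and these held 38.4% of the retained-intron TPM, while the other 60 hold part of an intron or other sequence. The abundant transcripts of Mrps9 and Mrpl24 are of the second kind. Mrpl52-203, the most abundant of all with 10.2, 21.02 and 12.0 TPM, spans 2 whole introns, and Mrps26-201 spans 1. An unspliced precursor and a transcript that keeps an intron after splicing share these bases and cannot be told apart in chromatin RNA by these values.

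The boundaries of such introns are printed because they show what the retained-intron transcripts contain that the coding ones lack. Each run has 20 bases on either side of a boundary, 5′ to 3′ on the gene's strand (GENCODE M21 transcripts, mm10), with the intron's first or last pair of bases in capitals. They belong to the first retained intron of Mrpl52-203 (chr14:54426961-54427033, plus strand, 73 bases), the second (chr14:54427092-54427170, plus strand, 79 bases) and the intron of Mrps26-201 (chr2:130564228-130564307, plus strand, 80 bases).
Mrpl52 first intron, start: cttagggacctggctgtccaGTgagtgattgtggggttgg
Mrpl52 first intron, end: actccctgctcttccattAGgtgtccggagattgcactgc
Mrpl52 second intron, start: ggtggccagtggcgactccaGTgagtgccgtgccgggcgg
Mrpl52 second intron, end: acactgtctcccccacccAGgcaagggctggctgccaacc
Mrps26 intron, start: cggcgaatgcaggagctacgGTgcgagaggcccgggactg
Mrps26 intron, end: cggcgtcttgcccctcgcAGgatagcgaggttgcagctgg
All of these begin with GT and end with AG, as did each of the 39 gene, transcript and intron combinations with coding sequence on both sides, whose introns had a median length of 173 bases (68 to 2327).

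The 2 deposited quantifications of the same libraries differed widely for these genes. With transcript TPM under kallisto column names summed per gene, 62 of 78 genes were detected, against 45. Detection also rose over all 21888 nuclear coding genes, to 10957 from 7852. For the 78 genes, the median ratio of the second to the first mean was 1.89. Over detected genes that ratio was 1.91 for members and 1.58 for all 7852 nuclear coding genes. The second value was more than 2-fold higher for 35 members, more than 4-fold higher for 15 and lower for 7. Retained-intron transcripts summed to 104 TPM in the first and 160 TPM in the second, but protein-coding transcripts to 117 and 401 TPM. The order of the 78 genes was partly shared (Spearman 0.71 across genes of the same libraries, which are not independent replicates).

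A few transcripts carried the largest gaps. Mrpl57, the lowest large-subunit gene by the first quantification at a mean of 0.303 TPM and 14 counts, had 38.1 TPM in the second, of which Mrpl57-201 held 99.5% on 2310 estimated counts. Mrpl20 had 2.49 against 97.6 TPM, and 93.5% of the latter lay in Mrpl20-202, a coding transcript of 442 bases. Mrpl48 had 8.91 against 53.2 TPM, with 77.1% in the processed transcript Mrpl48-203. Mrpl2 (0.523 against 14.5 TPM), Mrpl45 (2.05 against 19.9 TPM) and Mrpl42 (0.723 against 10.1 TPM) completed the 6 largest on the log2(TPM + 1) scale. The gap recurred in each library, as for Mrpl57 with 41.4, 36.8 and 36.2 TPM, so it lies between the quantifications and not between the libraries. Levels of these 6 genes are therefore uncertain, as are those of the rest of the 15 members more than 4-fold higher there. One of the rest is Mrpl35, at a mean of 0.63 against 6.68 TPM. The reason for the difference was not tested.

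**Figure D4:**
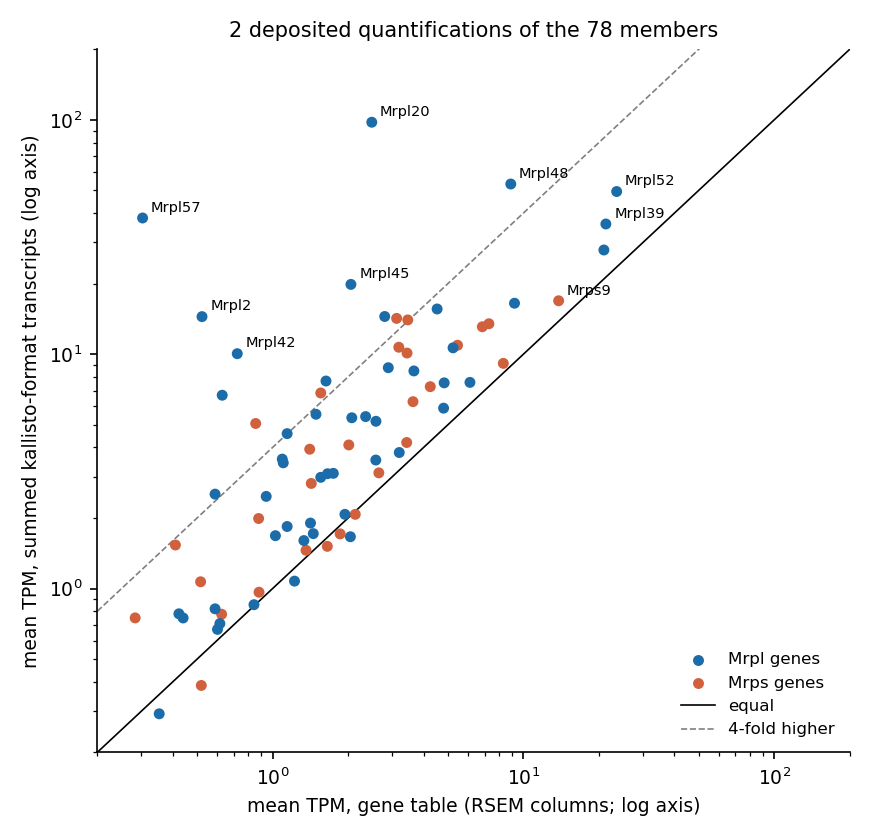
Mean TPM over 3 libraries of each of the 78 members in the gene table (horizontal, log axis) and in the summed transcripts of the second quantification (vertical, log axis), with lines at equality and at 4-fold higher. Most members lie above equality, and Mrpl57 (0.303 against 38.1 TPM) and Mrpl20 (2.49 against 97.6 TPM) lie farthest from it.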

How the data were processed

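Total RNA-seq of the chromatin fraction was analysed in 3 libraries of 1 group. The members and lists were chosen with earlier results of these data known. Per the labels, the genome was mm10 and the annotation GENCODE M21. The sources used here name no aligner, quantifier, version or strand setting. Per the file headers, the deposited gene and transcript tables give expected counts, TPM and a posterior SD of the count (a score of assignment uncertainty) under column names that RSEM writes, and other transcript tables give estimated counts and TPM under names that kallisto writes. The authors' TPM is scaled over all rows, so spike-in and other rows that name no gene, which held 1.40%, 0.352% and 0.354% of a library's expected counts (replicates 1 to 3), enter it; those rows stayed out of totals and tests.

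Levels are TPM of the gene table, and the level of a list is the median log2(TPM + 1) of its genes in a library. Isoforms were compared with limma 3.58.1 (intercept only, log2 of summed TPM + 0.5, variance trend on the log2 mean summed TPM, mean of at least 1 TPM, Benjamini-Hochberg adjustment over all genes tested, threshold 0.05). The spread was estimated with edgeR 4.0.16 on rounded expected counts, with TMM factors and filterByExpr. Both procedures were tested on simulated data. R was 4.3.3 and python 3.11.15. Named genes are the 8 highest and 8 lowest of each subunit and of the isoform ratios, the 6 largest and 3 smallest SDs, the 6 largest gaps between quantifications, preset members, and for partner lists the extremes; the text gives a selection. Mrps35, the isoform ratios named outside that rule and the genes at shared starts were chosen after their values were seen. 56 members had an assignment SD of 0 and 5 one above 5% of the count. Alternatives were the second quantification, other pseudocounts, filters and scalings, and each replicate left out.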

Additional observations from a re-analysis of the deposited data

How the results depend on the processing

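With TPM of at least 5 as the minimum, 9 members were detected, and with a replicate left out 46 to 53. The member level was 2.38 with the second quantification, 0.89 with a pseudocount of 0.1, 1.97 over detected genes, 3.18 after rescaling TPM over nuclear coding genes, and 1.34 to 1.60 with a replicate left out. The difference between Mrpl and Mrps genes turned to 0.11 with the second quantification and was -0.27 with a pseudocount of 0.1. Against cytosolic ribosomal protein genes the difference stayed below 0 in each alternative run: -2.0 with the second quantification, -2.81 with a pseudocount of 0.1, -1.64 as log2(CPM + 1), -1.86 over detected genes and -2.73 after rescaling. Against respiratory chain genes it was -0.37, -0.25, 0.12, -0.27 and -0.23 in the same order, so its sign depended on dividing by length.

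With a mean summed TPM of at least 5, only 8 members were tested, of which 4 (50%; all genes 42.8%) were higher for retained-intron and 2 (25%; all genes 32.0%) for coding transcripts. Members higher for coding transcripts numbered 17 of 42 with the second quantification (all genes 32.4%), 13 of 52 when all non-coding classes replaced the retained-intron class (25%; all genes 31.1%), and 3 to 7 of 36 with a replicate left out. Those higher for retained-intron transcripts then numbered 12 to 17 of 36, and without replicate 2 their share of 33.3% was near the 30.9% of all genes. The median coefficient of variation was 0.222 with no filter on low counts and 0.143 to 0.227 with a replicate left out.

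Among the 36 members, ratios that changed sign were those of Mrpl52 (-0.58), Mrpl11 (-1.53), Mrpl4 (-0.49), Mrpl51 (-2.31), Mrpl48 (-1.71), Mrpl19 (-0.053), Mrpl16 (-0.32), Mrpl13 (1.80), Mrps25 (0.81), Mrpl3 (0.066), Mrps17 (2.00) and Mrps30 (-0.017) with the second quantification; Mrpl38 (-0.41), Mrps5 (-0.099), Mrpl3 (0.67), Mrpl30 (0.16), Mrps33 (0.14), Mrps17 (0.95), Mrps18c (0.12) and Mrpl24 (1.86) as mean TPM per annotated transcript; Mrps18c (0.34) and Mrpl13 (0.079) with all non-coding classes; and, with a replicate left out, Mrps18c (-1.19 to 0.036) and Mrpl13 (-0.24 to 0.15). The cause was not tested. No paired analysis was possible because there was 1 group. Low counts limit single members: 24 of 78 had under 10 counts in at least 1 library.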
